A study of Drosophila melanogaster with 4 samples.

Results

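The small heat shock proteins of Drosophila melanogaster were examined in RNA from whole larvae. The 7 genes were Hsp22, Hsp23, Hsp26, Hsp27, Hsp67Ba, Hsp67Bc and l(2)efl. They were found by matching the transcript accessions of the authors' deposited gene table to NCBI Release 6 symbols. Each gene had 1 row, so the 7 genes took 7 of the 16198 rows in the table, and all 7 rows were among the 7058 that the authors tested. Third-instar larvae labelled kr-h1 mutant, homozygous for the allele kr-h1[7], were compared with larvae labelled wildtype, with 2 libraries in each group. Both groups were collected at 100 h after egg laying from stocks kept at 25°C, and the labels name no heat treatment. The labels name 1 mutant allele, give no strain for the wildtype and do not say how many larvae were pooled.

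Small heat shock proteins are chaperones that share an alpha-crystallin domain. They assemble into oligomers and hold unfolding proteins in a state from which ATP-dependent chaperones such as Hsp70 can refold them. In flies, genes of this family are induced by heat through the transcription factor Hsf, and several of them also respond to the moulting hormone ecdysone at the end of larval life. Kr-h1, a transcription factor with zinc fingers, acts downstream of juvenile hormone, the hormone that keeps larvae from maturing early. The design sets transcript levels of larvae labelled kr-h1 mutant against those of larvae labelled wildtype.

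The authors deposited 1 FPKM value per gene and group (fragments scaled to transcript length and to sequencing depth), combined over the 2 libraries of the group. No spread between libraries can therefore be given for any value below, and the depth of the libraries is unknown. A gene is said to be called, to have risen or to have fallen where its Cuffdiff q-value, taken from the authors' deposited table, is at most 0.05. Kr-h1 itself had 9.79 FPKM in mutant-labelled and 2.98 FPKM in wildtype-labelled larvae, 3.28-fold higher under the mutant label, and the authors' deposited table calls it higher (q = 0.000889). A mutant allele can still be transcribed, so this level does not settle whether the labels are right, and the table holds no other check of them. Every direction below rests on the group labels and would turn if they were exchanged. In whole-larva RNA, fewer cells of a type and less RNA per cell cannot be told apart.

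Of the 7 small heat shock genes, 3 rose in mutant-labelled larvae (Hsp22, Hsp26 and Hsp27), 1 fell (l(2)efl) and 3 were not called (Hsp23, Hsp67Ba and Hsp67Bc). Over all tested rows, 4.32% were called higher and 8.73% lower in the authors' deposited table. The 6 members at cytological position 67B of chromosome arm 3L all had the higher value in mutant-labelled larvae, which was the case for 46.5% of tested rows. Summed, the rows of these 6 genes came to 190 FPKM in mutant-labelled and 91.9 FPKM in wildtype-labelled larvae, a 2.07-fold difference. The row of Hsp22 also covers another gene, CG4456. Without that row the sum was 146 FPKM in mutant-labelled and 84.0 FPKM in wildtype-labelled larvae, a 1.74-fold difference. The abundant l(2)efl, on arm 2R, differed in the other direction, so that the sum over all 7 genes was 514 FPKM in mutant-labelled and 491 FPKM in wildtype-labelled larvae. The rows of the 6 genes at 67B, with CG4456 in that of Hsp22, made up 36.9% of that sum in mutant-labelled and 18.7% in wildtype-labelled larvae.

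**Figure D1:**
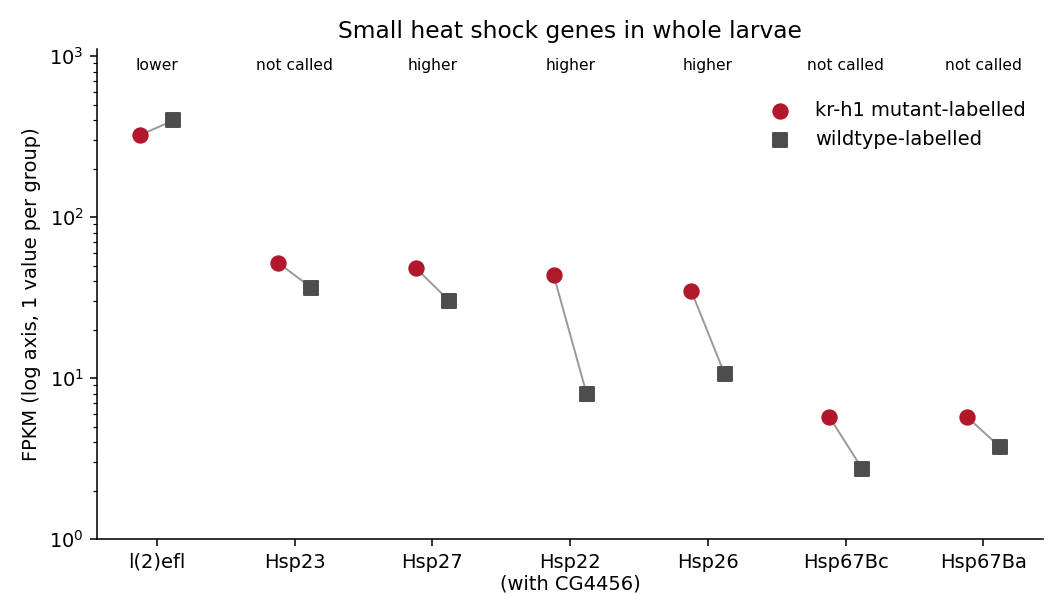
FPKM of each small heat shock gene (log axis, 1 value per group), with kr-h1 mutant-labelled larvae as red circles and wildtype-labelled larvae as grey squares, and the call of the deposited table above each pair. The 6 genes at 67B lie higher in mutant-labelled larvae, with the widest gap for the row of Hsp22 and CG4456 (43.6 against 7.94 FPKM), and l(2)efl lies lower (324 against 399 FPKM).

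Hsp22 encodes the small heat shock protein of the mitochondrial matrix, with 174 residues in the Ensembl annotation. Its row had 43.6 FPKM in mutant-labelled and 7.94 FPKM in wildtype-labelled larvae, 5.49-fold higher, and the authors' deposited table gives it a q-value of 0.0115. Its level was above that of 82.2% of tested rows in mutant-labelled larvae and above that of 38.1% in wildtype-labelled larvae. By the log2 ratio, computed with a pseudocount of 1, the row ranked 30th among the 305 rows called higher. The row also covers CG4456, a gene formerly named Hsp67Bb that encodes a protein of 111 residues without an alpha-crystallin domain. It holds 2 transcript accessions of each gene, and both gene models end at the same base, so the value cannot be divided between them. At a q-value threshold of 0.01, which 2.41% of tested rows passed as higher, the row of Hsp22 was not called.

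Hsp26 encodes a cytosolic small heat shock protein of 208 residues, and in the annotation all its transcripts consist of 1 exon. Hsp26 had 34.6 FPKM in mutant-labelled and 10.6 FPKM in wildtype-labelled larvae, a log2 ratio of 1.61. Its q-value of 0.000889 is the smallest in the authors' deposited table and is shared by 397 rows. It ranked 48th by log2 ratio among the rows called higher. Hsp26 and the row of Hsp22 were thus the members with the largest ratios, while the largest difference in FPKM was that of l(2)efl, at -74.5 FPKM (mutant-labelled minus wildtype-labelled). The Hsp26 row carries no second gene and shares its position with no other row.

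Hsp27 encodes a small heat shock protein of the nucleus, with 213 residues. Its level was 48.1 FPKM in mutant-labelled and 30.3 FPKM in wildtype-labelled larvae, 1.59-fold higher, and its q-value was 0.00163 (authors' deposited table). The difference was smaller than those of Hsp22 and Hsp26, and Hsp27 ranked 173rd by log2 ratio among the 305 rows called higher.

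Hsp23, a cytosolic small heat shock protein of 186 residues, had 52.0 FPKM in mutant-labelled and 36.5 FPKM in wildtype-labelled larvae. The ratio of these values was 1.42. It was not called, since the authors' deposited table lists a q-value of 0.0803 beside an unadjusted p of 0.0133. At an unadjusted p under 0.05, Hsp23 would join the 3 genes that rose, and 9.92% of tested rows are higher by that rule. Hsp23 was the most abundant gene of the 67B cluster under both labels. Among the 4 classical small heat shock genes of the cluster (Hsp22, Hsp23, Hsp26 and Hsp27), the values lay between 34.6 and 52.0 FPKM in mutant-labelled larvae, against 7.94 to 36.5 FPKM in wildtype-labelled larvae. The rows of these 4 genes were thus closer to each other in level under the mutant label, where the value for Hsp22 is that of its row with CG4456.

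Hsp67Bc, the fly counterpart of human HSPB8, works with the BAG-family co-chaperone Starvin in the clearance of damaged proteins. Hsp67Bc had 5.76 FPKM in mutant-labelled and 2.73 FPKM in wildtype-labelled larvae. The ratio was 2.11, larger than that of Hsp27, yet the authors' deposited table lists a q-value of 0.505 and the gene was not called. Hsp67Ba, which encodes the longest member with 445 residues, had 5.74 FPKM in mutant-labelled and 3.73 FPKM in wildtype-labelled larvae and was not called either, at a q-value of 0.310 in that deposited table of the authors. Both genes were low, and at a mean below 10 FPKM 2.10% of tested rows were called higher, against 4.51% from 10 to under 100 FPKM, where Hsp22, Hsp23, Hsp26 and Hsp27 lie. Hsp67Ba overlaps the antisense transcript asRNA:CR43481, which was listed at 0 in mutant-labelled and 0.108 FPKM in wildtype-labelled larvae. The strand setting of the counting is not given in the sources used here, so reads of the pair cannot be told apart.

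The gene l(2)efl encodes the fly relative of alpha-B crystallin, with 187 residues, and is known from muscle. Unlike the members at 67B, whose transcripts in the annotation are of 1 exon except for 1 of the Hsp22 models, its transcripts have 3 exons. Its level was 324 FPKM in mutant-labelled and 399 FPKM in wildtype-labelled larvae, 1.23-fold lower, and the authors' deposited table lists it at q = 0.000889. It was the most abundant member under both labels, above 96.1% of tested rows in mutant-labelled and 96.4% in wildtype-labelled larvae. At 100 FPKM or more, 34.9% of tested rows (233 rows) were called lower. The median fold of the 232 of them with a value above 0 in mutant-labelled larvae was 1.29, beside 1.23 for l(2)efl. The row shares its position with that of St3, which had 8.38 FPKM in mutant-labelled and 4.18 FPKM in wildtype-labelled larvae and was not called.

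**Figure D2:**
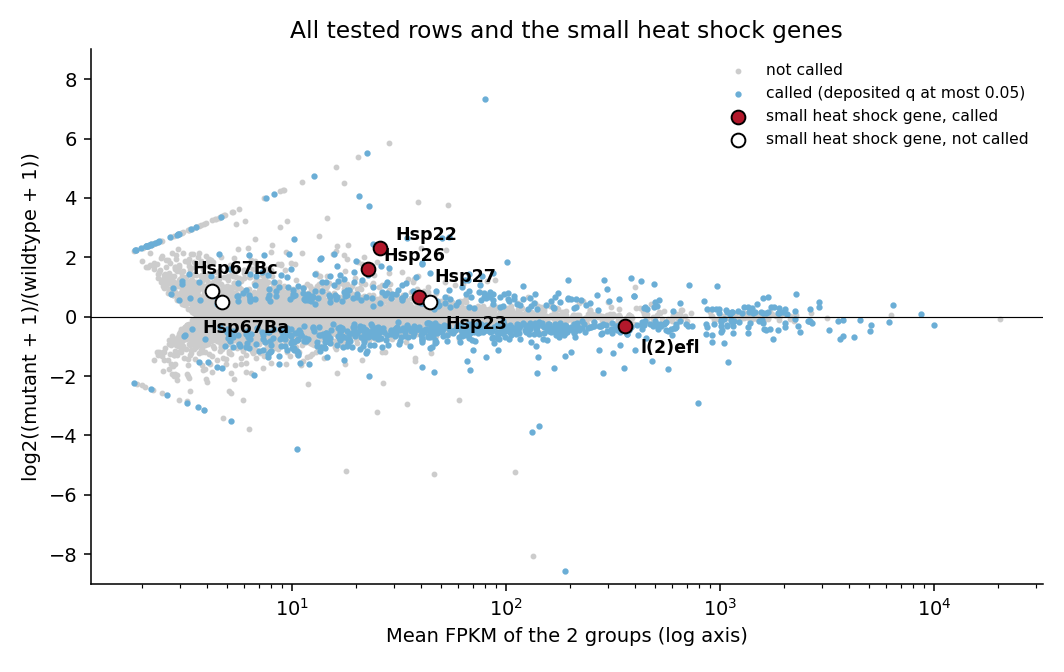
The log2 ratio of mutant-labelled over wildtype-labelled FPKM, with a pseudocount of 1, against the mean FPKM of the groups (log axis) for all 7058 tested rows, with called rows in blue and the small heat shock genes as large labelled circles. The row of Hsp22 (2.32) and Hsp26 (1.61) lie above most rows of their abundance, and l(2)efl (-0.30) lies among the many abundant rows called lower.

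In order of level, mutant-labelled larvae had l(2)efl, Hsp23, Hsp27, the row of Hsp22, Hsp26, Hsp67Bc and Hsp67Ba. In wildtype-labelled larvae the order was l(2)efl, Hsp23, Hsp27, Hsp26, the row of Hsp22, Hsp67Ba and Hsp67Bc. The orders differ in 2 neighbouring pairs, and with 1 value per group it cannot be said which neighbours differ beyond the spread between libraries. The median log2 ratio of the 7 members was 0.65, and that of all tested rows was -0.03.

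The 6 genes at 67B lie within 14.2 kb, from position 9371511 to 9385694 of arm 3L, where the positions in the deposited table coincide with the Release 6 annotation for Hsp23, Hsp26, Hsp27 and Hsp67Bc. Hsp67Bc and Hsp22 are divergently transcribed, with 433 bases between the gene models. CG4456, on the strand of Hsp22, starts within that gap, with 224 bases between it and Hsp67Bc. The ratio was 2.11 for Hsp67Bc and 5.49 for the joint row of CG4456 and Hsp22. Hsp26 and Hsp67Ba follow on the minus strand 374 bases apart, and Hsp23 and Hsp27 on the plus strand 1297 bases apart. CG4461, another alpha-crystallin gene, lies between Hsp22 and Hsp26, ends 124 bases from the end of Hsp26, and was listed at 0.679 FPKM in mutant-labelled larvae and at 0 in wildtype-labelled larvae. It was not tested by the authors. The cluster thus held strongly different levels at close range, from near 0 for CG4461 to 34.6 FPKM for Hsp26 in mutant-labelled larvae.

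Outside the cluster, 0 of the 10 nearest tested rows on each side were called higher in the authors' deposited table, against 4.32% of all tested rows. At an unadjusted p under 0.05, 1 of these 20 rows was higher and 2 were lower in mutant-labelled larvae. By that rule, 9.92% of all tested rows were higher and 25.8% differed in either direction. Pdxk was called lower, as were 8.73% of all tested rows, with 71.5 FPKM in mutant-labelled and 100.4 FPKM in wildtype-labelled larvae. The median log2 ratio of the 20 rows was 0.07, against 0.75 for the 6 tested rows of the cluster. The highest log2 ratio among the flanking rows was that of mRRF1, a mitochondrial ribosome recycling factor gene, listed at 4.49 FPKM in mutant-labelled larvae and at 0 in wildtype-labelled larvae, which the authors' deposited table leaves uncalled at q = 0.228. Whether the cluster differs from its flanks was not tested.

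**Figure D3:**
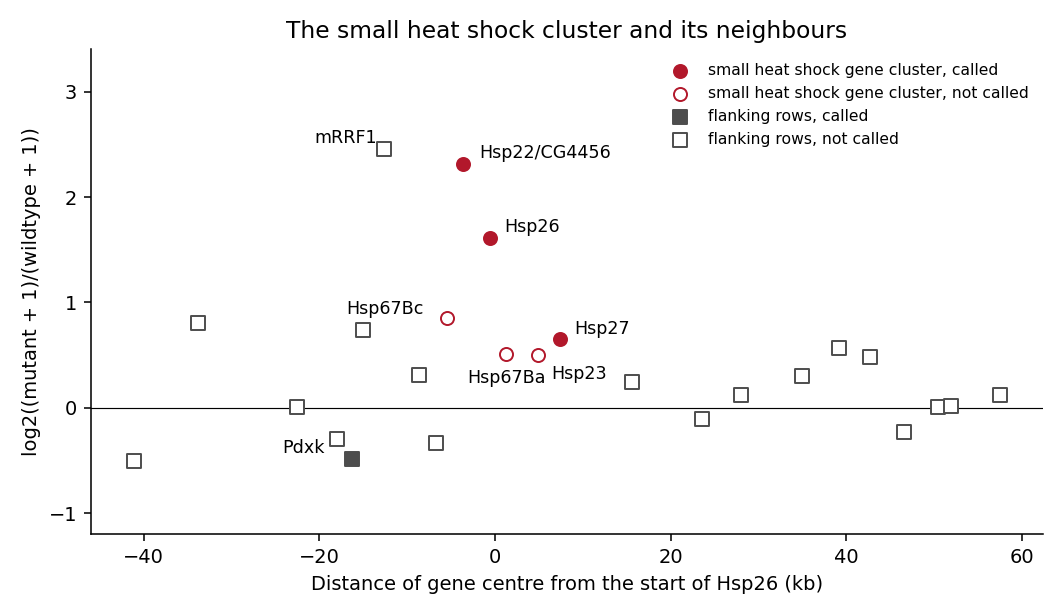
The log2 ratio of mutant-labelled over wildtype-labelled FPKM, with a pseudocount of 1, for tested rows of the 67B cluster (red circles) and its flanks (grey squares), against the distance of each gene's centre from the start of Hsp26 in kb. Filled symbols are called. The 6 cluster rows lie between 0.50 and 2.32, and the called flanking row, Pdxk, lies at -0.48. The farthest of the 20 flanking rows, Slc45-1, is beyond the left edge.

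Outside the 7 genes, 4 other alpha-crystallin genes had rows, of which the authors tested 1 and called 0, also at an unadjusted p under 0.05 in their deposited Cuffdiff table. The tested gene, CG14207, had 104 FPKM in mutant-labelled and 112 FPKM in wildtype-labelled larvae. CG7409 (1.84 FPKM in mutant-labelled and 3.46 FPKM in wildtype-labelled larvae) and CG13133 (a listed 0 in mutant-labelled and 0.693 FPKM in wildtype-labelled larvae) were not tested, like CG4461.

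Among the Hsp70 and Hsp90 genes, which refold or hold client proteins with ATP, 2 of 4 tested rows rose and 1 fell. In the whole deposited table of the authors, 4.32% of tested rows were called higher and 8.73% lower. Hsp68, a stress-inducible Hsp70 family member, had 24.7 FPKM in mutant-labelled and 8.70 FPKM in wildtype-labelled larvae, a log2 ratio of 1.41, between those of Hsp27 and Hsp26. Hsp83, the cytosolic Hsp90, had 185 FPKM in mutant-labelled and 149 FPKM in wildtype-labelled larvae, and the constitutive Hsc70-4 was called lower at 424 FPKM in mutant-labelled against 469.7 FPKM in wildtype-labelled larvae. At 100 FPKM or more, where Hsc70-4 lies, 34.9% of tested rows were called lower. The heat-inducible Hsp70 genes Hsp70Aa, Hsp70Ab, Hsp70Ba, Hsp70Bb, Hsp70Bbb and Hsp70Bc were at or near 0 under both labels. The highest of them, Hsp70Bc, had 0.404 FPKM in mutant-labelled and 0.216 FPKM in wildtype-labelled larvae. The sequences of these genes are almost the same, which makes each value alone uncertain, and none of them was tested by the authors. Hsp68 and Hsp83 share their positions with other rows.

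Of the co-chaperones, 2 of 17 tested rows rose and 0 fell in the authors' deposited table, with 5 of 17 at an unadjusted p under 0.05, which 25.8% of all tested rows reached. The shares of all tested rows called were 4.32% higher and 8.73% lower. DnaJ-1, an Hsp40 protein that hands clients to Hsp70, had 22.2 FPKM in mutant-labelled and 13.2 FPKM in wildtype-labelled larvae. CG1416, a homologue of the Hsp90 activator Aha1, had 42.6 FPKM in mutant-labelled and 25.4 FPKM in wildtype-labelled larvae. Chaperonins and mitochondrial chaperones were called in 0 of 12 tested rows, with 0 at an unadjusted p under 0.05 and log2 ratios from -0.22 to 0.18. Hsp60A, the mitochondrial chaperonin, had 77.7 FPKM in mutant-labelled and 76.1 FPKM in wildtype-labelled larvae, beside the 5.49-fold ratio of the row of the matrix protein Hsp22. Of 7 genes of chaperone-assisted autophagy, 0 rose and 2 fell, namely Hsc70-4 and the filamin gene cher (60.2 FPKM in mutant-labelled and 88.4 FPKM in wildtype-labelled larvae). This list shares members with the lists above, among them Hsc70-4, whose fall is thus counted in both. Hsc70-4 lies at 100 FPKM or more, where 34.9% of tested rows were called lower. Starvin (stv), the partner of Hsp67Bc, had 7.70 FPKM in mutant-labelled and 10.3 FPKM in wildtype-labelled larvae and stayed uncalled at q = 0.167 in the authors' deposited table.

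Hsf, the heat shock transcription factor, had 9.55 FPKM in mutant-labelled and 9.45 FPKM in wildtype-labelled larvae (q = 0.977 in the authors' deposited table). Its transcript level says nothing of the activity of the protein, which is set by trimer formation. The row of Trl, the GAGA factor that binds heat shock promoters, also covers Tsen34 and fell to 20.2 FPKM in mutant-labelled larvae, against 30.5 FPKM in wildtype-labelled larvae (q = 0.0346 in the authors' deposited table). The heat-inducible non-coding RNA lncRNA:Hsromega had 69.6 FPKM in mutant-labelled and 55.8 FPKM in wildtype-labelled larvae and was not called. Of the 4 genes on this list, 3 had tested rows, of which 0 rose and 1 fell, the joint row of Trl and Tsen34. Among all tested rows, 4.32% were called higher and 8.73% lower.

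Genes of the ecdysone response were called higher in 1 and lower in 1 of 9 tested rows, with 3 at an unadjusted p under 0.05, and 8 more rows were not tested. Over all tested rows, 4.32% were called higher, 8.73% lower, and 25.8% had an unadjusted p under 0.05 in the authors' deposited Cuffdiff table. The gene called higher was Cth (Eip55E), with 103 FPKM in mutant-labelled and 65.0 FPKM in wildtype-labelled larvae. The row called lower was that of Actn and usp, where usp encodes the partner of the ecdysone receptor. Its value cannot be divided between these genes, so the call cannot be credited to usp. The early genes Eip74EF (7.43 FPKM in mutant-labelled and 6.46 FPKM in wildtype-labelled larvae) and Eip75B (6.16 FPKM in mutant-labelled and 7.21 FPKM in wildtype-labelled larvae) were not called. FOXO and JNK signalling, known to act on Hsp22 and l(2)efl in adult flies, had 0 of 7 tested rows called and 2 at an unadjusted p under 0.05. Of 11 tested oxidative stress genes, 2 rose and 5 fell. The glutamate-cysteine ligase genes Gclm and Gclc rose, and GstD2, Prx2, Sod1, Trxr1 and GstD1 fell, with log2 ratios from -0.61 for GstD2 to -0.26 for GstD1. Of those that fell, Prx2, Sod1, Trxr1 and GstD1 had a mean of 100 FPKM or more, where 34.9% of tested rows were called lower.

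**Figure D4:**
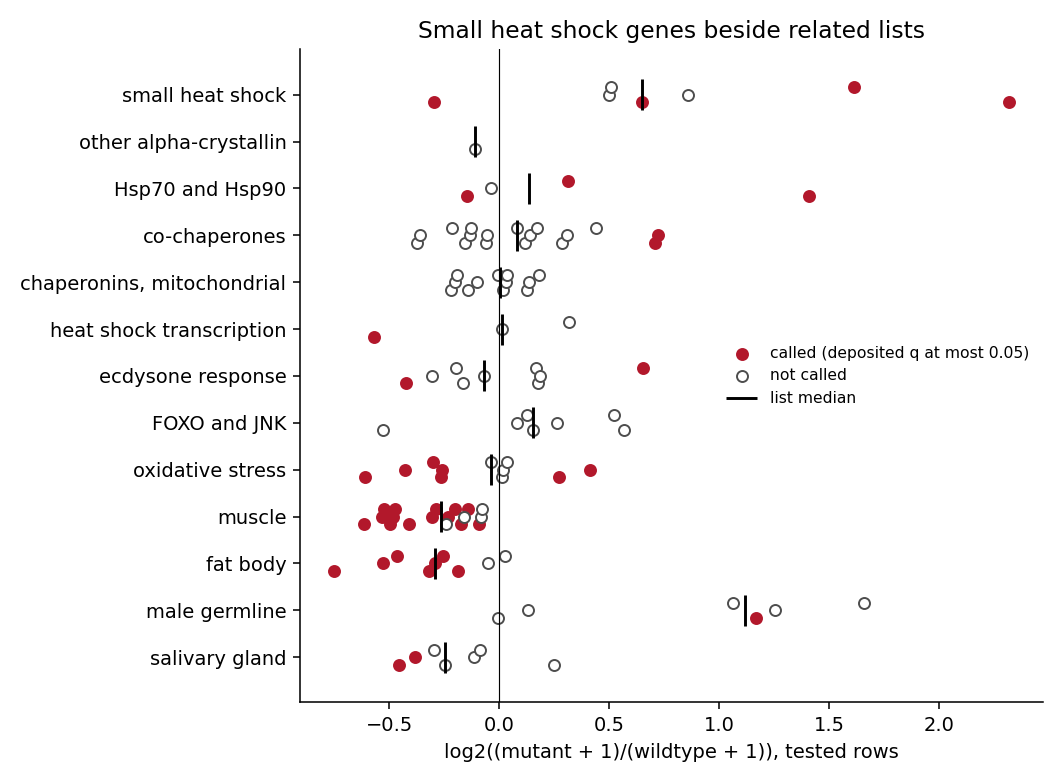
The log2 ratio of mutant-labelled over wildtype-labelled FPKM, with a pseudocount of 1, of every tested row in each list drawn, with called rows filled and the list median as a vertical bar. The row of Hsp22 (2.32) has the highest ratio of all rows drawn, Hsp68 (1.41) is the highest row among Hsp70 and Hsp90 genes, and no muscle row has a ratio above 0.

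Many markers of the tissues in a whole larva differed between the groups in the same libraries. Over all tested rows, 4.32% were called higher and 8.73% lower in the authors' deposited table. At 100 FPKM or more, where many of these markers lie, 34.9% were called lower. Muscle markers were called lower in 14 of 18 rows and higher in 0, summing to 14859 FPKM in mutant-labelled and 18127 FPKM in wildtype-labelled larvae. The median log2 ratio was -0.26 for muscle, -0.29 for fat body and -0.25 for salivary gland markers, and that of l(2)efl was -0.30. Mhc, the myosin heavy chain, had 326 FPKM in mutant-labelled and 500.4 FPKM in wildtype-labelled larvae, and sls, Prm and Mlp84B were also called lower. Fat body markers were called lower in 7 of 9 rows, summing to 18269.6 FPKM in mutant-labelled and 23557 FPKM in wildtype-labelled larvae, and salivary gland markers in 2 of 7 (Sgs8 and Eig71Ee), summing to 2539 FPKM in mutant-labelled and 2907 FPKM in wildtype-labelled larvae. No marker of these 3 tissues was at 0. Male germline markers, which matter here because Hsp23, Hsp26 and Hsp27 are known to be made in fly gonads without heat, were tested in 6 of 17 rows. Mst98Ca was called higher, with 19.5 FPKM in mutant-labelled and 8.13 FPKM in wildtype-labelled larvae. The other 5 tested rows were not called. Of the 6 tested rows, 5 had the higher value in mutant-labelled larvae, as had 46.5% of all tested rows. Their median log2 ratio was 1.12, beside 0.65 for the 7 small heat shock genes. The 17 rows summed to 172 FPKM in mutant-labelled and 95.2 FPKM in wildtype-labelled larvae, and comr was at 0 under both labels. The uncalled Mst84Da (49.7 against 20.3 FPKM) and Mst87F (33.5 against 9.94 FPKM) had the largest values in mutant-labelled larvae in that sum. The row of Task7 and betaTub85D had 14.3 FPKM in mutant-labelled and 14.4 FPKM in wildtype-labelled larvae. The part of tissue makeup in the levels of the small heat shock genes was not tested.

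The called rows nearest to each called member in both group values were found by the distance between log2(FPKM + 1) pairs over the 2 groups. For the row of Hsp22 these were fiz (41.2 FPKM in mutant-labelled and 6.72 FPKM in wildtype-labelled larvae) and CG32407 (31.9 FPKM in mutant-labelled and 7.95 FPKM in wildtype-labelled larvae). For Hsp26 they were AANATL6 (33.5 FPKM in mutant-labelled and 11.9 FPKM in wildtype-labelled larvae) and Prx6c (40.6 FPKM in mutant-labelled and 11.6 FPKM in wildtype-labelled larvae). For Hsp27 they were CG6126 and the row of CG8520 and Dera, and for l(2)efl they were Arc1 and Mpcp2. With 2 values per gene, such likeness describes the levels only.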

How the data were processed

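Polyadenylated RNA was sequenced in paired-end mode, per the labels' protocols, and TopHat2, Cufflinks and Cuffdiff are listed in the submitters' processing notes. Versions, settings, genome build and annotation are not given in the sources used here. FPKM values were made by the authors with Cuffdiff, 1 per group over 2 libraries. The deposited log2 fold change matched the log2 of the values, and the deposited q-value matched a Benjamini-Hochberg adjustment of the deposited p-value over 7058 tested rows. The deposited test statistic, a score, was not used. The labels do not state that libraries were separate collections of larvae, so p-values may measure technical spread. Depth is unknown, and no replicate-level test could be made.

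Of 30529 accessions, 30273 matched a Release 6 symbol. Synonyms were used where unique, and Hop, l(2)tid and nos stayed unmatched. Log2 ratios use a pseudocount of 1 and understate changes of low genes. Strands, exons and coding lengths came from Ensembl release 115. The members, and the lists of other chaperones, heat shock transcription, ecdysone response, FOXO and JNK, oxidative stress and tissue markers, were chosen with earlier results of these data known. Named were all members, up to 4 called genes per list and direction, and the 2 nearest rows per called member. Others were named after their values were seen. The ratio, call and adjustment steps were tested on simulated data with planted changes and p-values, which checks their arithmetic only and not the deposited calls. Python 3.11.15, numpy 2.4.6, pandas 2.3.3 and matplotlib 3.10.9 were used.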

Additional observations from a re-analysis of the deposited data

How the results depend on the processing

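The log2 ratios of the 7 members kept their sign and stayed within 1.5-fold of the reported ratio in 35 of 35 recomputations with another pseudocount, without one, with a filter on low FPKM, centred on all tested rows or scaled to equal totals, and the median lay between 0.65 and 0.71. All of these recomputations use the same 1 value per group, and the filter left out no member. They show the effect of arithmetic choices only and say nothing of the spread between libraries or of the calls. At a q-value of at most 0.01, 2 members were called higher, since the row of Hsp22 no longer passed. Without rows of several symbols the count was also 2, and at an unadjusted p under 0.05 it was 4, with Hsp23 added. Without rows that share a position, the members called lower numbered 0, since l(2)efl is left out, and the related chaperones called higher numbered 2, since Hsp68 and Hsp83 are left out. No paired analysis was possible because the table holds 1 value per group, and for the same reason no library could be left out. The planned search of promoters for heat shock elements was not run. Depth is unknown, so the smallest difference that could have been called for low members such as Hsp67Bc is unknown.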
